A study of Mus musculus with 2 samples.

Results

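The serine, glycine and one-carbon enzymes make serine, split it into glycine and a one-carbon unit carried on folate, and pass that unit on or break glycine down. The group was set by name and not by its values, though earlier results of these data were known. It consists of 10 Ensembl identifiers paired with the symbols Phgdh, Psat1, Psph, Shmt1, Shmt2, Mthfd2, Mthfd1, Aldh1l1, Aldh1l2 and Gldc. The tables list 9 of the 10, among 12530 mouse genes in all. Shmt1 (ENSMUSG00000020534), the cytosolic enzyme that converts serine to glycine, is in neither table and has no value here. A gene was compared between genotypes when its reads in the 2 libraries summed to at least 100, which 8 of the 9 listed enzymes did. Phgdh did not reach it.

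Ribosome-protected fragments, the pieces of mRNA that a ribosome shields from nuclease, were sequenced from mouse spinal cord. There was 1 wild-type library and 1 library of animals with the genotype Gars C201R/+, which carry a missense allele of the gene for glycyl-tRNA synthetase beside a wild-type allele. Each library came from the pooled lysates of 3 animals, so the tables hold no variation between animals, and the labels name no strain, age or sex. The design text states the aim as ribosome occupancy at glycine codons, whereas these tables give 1 read total per gene and no RNA measurement. A level therefore means scaled ribosome footprint reads, in which mRNA amount and translation cannot be told apart.

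As background, serine is built in the cytosol from a glycolytic intermediate in 3 steps, catalysed in turn by Phgdh, Psat1 and Psph. Shmt1 in the cytosol and Shmt2 in mitochondria then move a carbon from serine to tetrahydrofolate and leave glycine, the amino acid that the mutated synthetase attaches to its tRNAs. Mthfd1 and Aldh1l1 handle the folate-bound carbon in the cytosol, Mthfd2 and Aldh1l2 do so in mitochondria, and Gldc starts the mitochondrial cleavage of glycine. In the central nervous system serine synthesis is largely a task of astrocytes, and Aldh1l1 is a widely used astrocyte marker. Several of these genes, among them Phgdh, Psat1, Psph, Shmt2, Mthfd2 and Aldh1l2, are known targets of the stress-response factor ATF4.

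The wild-type library held 7770935 gene reads and the Gars C201R/+ library 3491159, a 2.23-fold difference in depth. The 9 enzymes took 5019 of these reads (0.0646%) in the wild-type and 2244 (0.0643%) in the Gars C201R/+ library. Read totals of the single enzymes ranged from 13 to 2264 per library. The precision of a comparison therefore differed widely between members. Markers of spinal cord cell types could not be read, because the tables give identifiers that no table used here pairs with symbols beyond the 10 members. The tissue label was not checked for that reason. In bulk tissue, fewer cells of a type and less RNA per cell cannot be told apart.

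The promoter letters are shown for 4 listed members that differ in level and whose start site is the outer end of the RefSeq gene. Most members share a CCAAT sequence close to the start. Each line holds the 120 bases before the RefSeq start site, 5′ to 3′ in the direction of the gene, in build GRCm38.p6. Capitals mark CCAAT, or ATTGG where it lies on the other strand. Psat1 was the most abundant member, Phgdh and Gldc were among the least abundant, and Shmt2 has no match in its window.
Psat1, chr19:15925060-15925179, minus strand: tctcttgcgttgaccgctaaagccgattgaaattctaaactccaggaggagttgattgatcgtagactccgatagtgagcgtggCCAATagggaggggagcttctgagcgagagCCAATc
Phgdh, chr3:98339970-98340089, minus strand: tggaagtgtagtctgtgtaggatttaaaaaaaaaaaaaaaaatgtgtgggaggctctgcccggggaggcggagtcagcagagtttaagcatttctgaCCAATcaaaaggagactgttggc
Gldc, chr19:30175442-30175561, minus strand: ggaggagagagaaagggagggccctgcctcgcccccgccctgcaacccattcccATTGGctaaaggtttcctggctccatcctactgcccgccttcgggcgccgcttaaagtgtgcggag
Shmt2, chr10:127522445-127522564, minus strand: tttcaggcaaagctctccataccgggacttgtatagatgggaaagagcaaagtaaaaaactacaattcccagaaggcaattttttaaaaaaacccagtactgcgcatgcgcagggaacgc

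The promoter table held 10 promoters of 9 members, with 2 start sites for Psat1, and no entry for Aldh1l2. CCAAT was searched on both strands in the 250 bases before the start. It was present in 8 of the 10 member promoters, which belong to 8 of the 9 members. The Shmt2 promoter and 1 of the 2 Psat1 promoters had no match. CCAAT was present in 33.8% of all 32851 promoters of the table and in 35.4% of the 21262 promoters of protein-coding genes. At least 2 matches were found in 5 of the 10 member promoters, those of Phgdh, Psat1, Psph, Mthfd2 and Aldh1l1, against 10.1% of all promoters. Mthfd2 had 3. This motif was chosen after the sequences had been read, so the counts are a description of letters and carry no test. The core of the CARE element, through which ATF4 can act, was searched as TGATGNAA on both strands. It was in 0 of the 10 member promoters and in 3.45% of all promoters. At so low a general share, 0 of 10 does not set the members apart. The count also says nothing about elements outside these windows. The 2 motifs were counted separately.

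Per gene length, the enzymes fell into the same 4 tiers in both libraries. How much of each gene length is translated is not given in the sources used here. The intervals on level differences between genes therefore cover counting error only, not a bias from length. Psat1 (ENSMUSG00000024640, chr19:15905123-15925059), the aminotransferase of serine synthesis, was the most abundant. Its deposited RPKM, reads scaled to gene length and library total, was 111 in the wild-type library (95% Poisson interval 107 to 116) and 117 in the Gars C201R/+ library (110 to 125). It ranked 536th and 515th of the 12530 listed genes, whose median RPKM was 8.40 and 8.63.

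The cytosolic folate enzymes followed. Mthfd1 (ENSMUSG00000021048, chr12:76254406-76319820), a trifunctional enzyme that interconverts folate-bound carbon units, was at 34.6 RPKM (32.4 to 37.0) in wild type and 31.1 (28.0 to 34.5) in Gars C201R/+. Aldh1l1 (ENSMUSG00000030088, chr6:90550768-90599171), which oxidises formyl-tetrahydrofolate, was at 33.8 RPKM (31.9 to 35.9) and 30.2 (27.5 to 33.2). These neighbours were not separated by counting error in either library, and Psat1 stood above Mthfd1 by 3.21-fold (2.97 to 3.47) in wild type and 3.77-fold (3.34 to 4.26) in Gars C201R/+.

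A middle tier held Shmt2, Mthfd2 and Psph. Shmt2 (ENSMUSG00000025403, chr10:127517123-127522444) had an RPKM of 13.6 (11.97 to 15.5) in wild type and 13.3 (10.9 to 16.0) in Gars C201R/+. For Mthfd2 (ENSMUSG00000005667, chr6:83305704-83326011), the mitochondrial dehydrogenase and cyclohydrolase, the RPKM was 11.6 (10.0 to 13.4) and 9.54 (7.43 to 12.05). Psph (ENSMUSG00000029446, chr5:129765558-129787443), the phosphatase that releases serine, had 9.78 (8.18 to 11.6) and 13.4 (10.7 to 16.7). Their order was Shmt2, Mthfd2, Psph in wild type, with no neighbours separated by counting error. In Gars C201R/+ it was Psph, Shmt2, Mthfd2, with Shmt2 above Mthfd2 by 1.39-fold (1.02 to 1.91) and Psph not separated from Shmt2.

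The lowest tier held Phgdh, Gldc and Aldh1l2. Phgdh (ENSMUSG00000053398, chr3:98313171-98339969), the dehydrogenase that opens serine synthesis, was at 3.05 RPKM (2.23 to 4.08) in wild type and 1.95 (1.04 to 3.34) in Gars C201R/+. Gldc (ENSMUSG00000024827, chr19:30098441-30175441), the glycine decarboxylase, was at 2.42 (1.89 to 3.05) and 2.41 (1.65 to 3.41). Aldh1l2 (ENSMUSG00000020256, chr10:83487447-83534146), the mitochondrial counterpart of Aldh1l1, was at 2.15 (1.75 to 2.61) and 2.83 (2.16 to 3.64). No neighbours within this tier were separated by counting error, while the tier as a whole lay below the median gene.

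**Figure D1:**
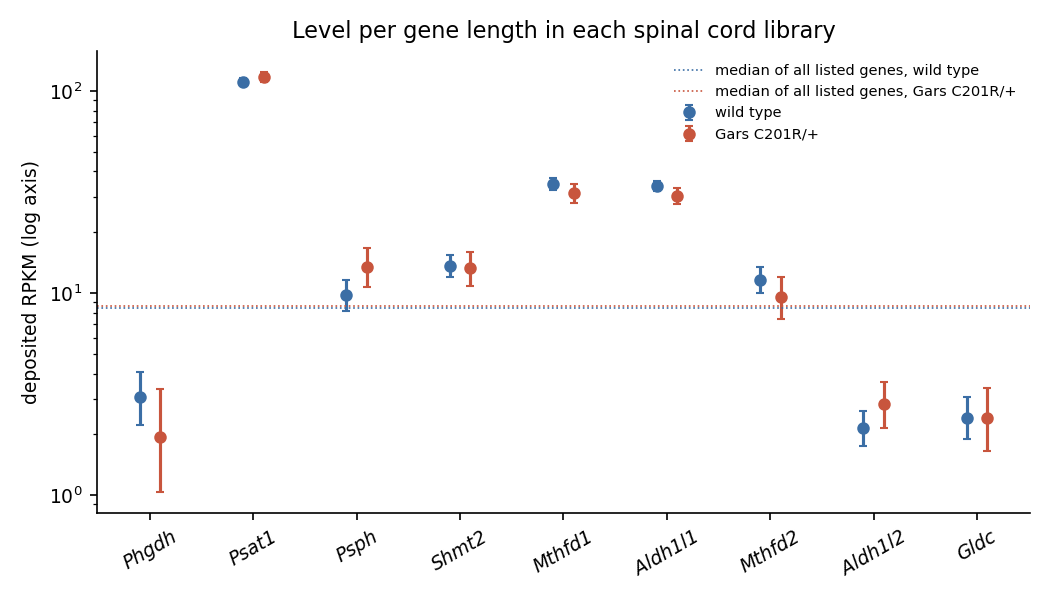
Deposited RPKM of the 9 listed enzymes on a log axis, wild type in blue and Gars C201R/+ in red, 1 library each. Bars are 95% Poisson intervals and dotted lines the median of all listed genes. Psat1 sits at 111 and 117, and Phgdh, Gldc and Aldh1l2 lie below the median in both libraries.

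The consecutive steps of serine synthesis were read at very unequal levels. Psat1 was above Phgdh per length by 36.4-fold (95% counting interval 27.1 to 50.0) in wild type and by 60.1-fold (35.0 to 113) in Gars C201R/+. It was above Psph by 11.4-fold (9.53 to 13.6) and 8.73-fold (6.97 to 11.1). The RefSeq gene table lists 1 pseudogene named after a member, Phgdh-ps1 at chr7:83710887-83711911, and the sources used here do not say how reads shared with near-identical copies were counted. Its part in the Phgdh level was not tested.

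In the 2 pairs that could be compared, the cytosolic enzyme was read above its mitochondrial counterpart in both libraries. The third pair, Shmt1 and Shmt2, could not be compared because Shmt1 is not listed. Mthfd1 is trifunctional while Mthfd2 is a dehydrogenase and cyclohydrolase, so this pair is not matched in all activities. Mthfd1l and Mthfd2l, among the other pathway genes planned, were not analysed, so a level of the whole mitochondrial arm is not given. Mthfd1 exceeded Mthfd2 per length by 2.97-fold (2.54 to 3.50) in wild type and 3.26-fold (2.52 to 4.28) in Gars C201R/+. The gap was wider for the other pair, with Aldh1l1 above Aldh1l2 by 15.7-fold (12.8 to 19.5) and 10.7-fold (8.14 to 14.2). The gene lengths behind these values, inferred from reads and RPKM, were 4175 nt for Aldh1l1 and 6027 nt for Aldh1l2. The part of untranslated length in the gap was not tested.

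In the make-up of the pathway's reads, Psat1 held 45.1% (95% Wilson interval 43.7% to 46.5%) of the reads of the 9 enzymes in wild type and 48.2% (46.1% to 50.2%) in Gars C201R/+. Aldh1l1 held 21.9% (20.8% to 23.1%) and 19.8% (18.2% to 21.5%), and Mthfd1 17.4% (16.4% to 18.5%) and 15.8% (14.4% to 17.4%). The 4 mitochondrial enzymes together made up 12.03% of these reads in wild type (11.2% to 13.0%) and 11.99% in Gars C201R/+ (10.7% to 13.4%). These are shares of reads, so a long gene counts for more than a short gene of equal level.

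**Figure D2:**
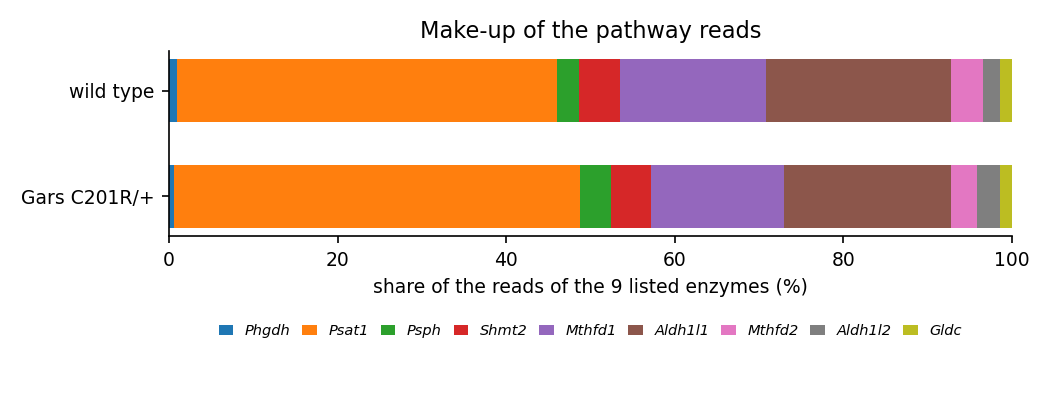
Share of the reads of the 9 listed enzymes held by each, in percent, for the wild-type (top) and Gars C201R/+ (bottom) library. Psat1 is the widest block in both, at 45.1% and 48.2%.

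The main comparison asks whether these enzymes were read at other levels in Gars C201R/+ spinal cord than in wild type. None differed by the calling rule. A gene was called when it had 100 or more reads, a 95% counting interval that excluded equal levels, and a ratio of at least 1.5-fold after TMM scaling, which sets the bulk of genes equal. By this rule 0 of the 8 members tested were higher and 0 were lower. Gldc could not have been called lower, because at its 71 wild-type reads no Gars C201R/+ count met both the read minimum and the fold limit. Among all 9726 genes tested, 19.3% were called, 8.14% higher and 11.2% lower. The members' log2 ratios of Gars C201R/+ over wild type lay between -0.33 and 0.41, with a median of -0.07 against -0.03 over all genes tested. With 1 library per genotype there is no replicate check and no p-value, and the intervals cover counting error only.

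In serine synthesis, the reads of Psat1 were close to equal between the libraries, while Psph had a ratio above 1 and Phgdh a ratio below 1, neither separated from 1 by counting error. Psat1 had 2264 wild-type and 1081 Gars C201R/+ reads, a log2 ratio of 0.03 (95% counting interval -0.07 to 0.14). This is the tightest interval in the group and leaves, on counting error, a fold between 0.952 and 1.10. Psph had 132 and 82 reads, a log2 ratio of 0.41 (-0.0018 to 0.82), or 1.33-fold. It had the highest ratio of the members, its interval just included equal levels, and 93 reads in the Gars C201R/+ library would have met the rule.

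Phgdh had 45 and 13 reads, a log2 ratio of -0.68 (-1.71 to 0.22). With 58 reads it was not tested, and the interval runs from a fold of 0.307 to 1.17. The reads of the 3 serine synthesis enzymes summed to 2441 and 1176, with a log2 ratio of 0.05 (-0.05 to 0.15). That sum is mostly Psat1.

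In serine-to-glycine conversion and glycine cleavage, only the reads of Shmt2 and Gldc were compared. Both had ratios near 1, with intervals that included equal levels. Shmt2 had 243 wild-type and 107 Gars C201R/+ reads, a log2 ratio of -0.08 (-0.42 to 0.25), which turned to 0.18 in a random thinning of the wild-type reads to the depth of the other library. Gldc had 71 and 32 reads, a log2 ratio of -0.05 (-0.70 to 0.57), whose sign turned to 0.0046 when libraries were scaled to total gene reads. For Gldc the counting interval still holds differences of 1.49-fold up and a fold of 0.616 down, so the depth cannot show a moderate difference.

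The cytosolic folate enzymes had nearly the same ratio. Mthfd1 had 874 and 355 reads, a log2 ratio of -0.20 (-0.38 to -0.02). Aldh1l1 had 1100 and 444 reads, a log2 ratio of -0.21 (-0.37 to -0.05). Their folds were 0.871 and 0.866, and these were the only 2 of the 8 tested members whose interval excluded equal levels under TMM. Across all genes tested 51.9% of the intervals did so, 28.2% on the lower and 23.7% on the higher side, so 2 of 8 is no more than the general share.

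Those 2 exclusions also depend on the scaling. Both stayed with DESeq2 size factors, where 28.4% of all tested genes had an interval below equal levels. They also stayed with TMM without the genes above 1% of a library (28.2%). With libraries scaled to total gene reads neither interval excluded equal levels, at log2 ratios of -0.15 for both, and that of Psph did so on the higher side at 0.47. Under this scaling 24.1% of all tested genes had an interval below and 27.7% above equal levels. Under upper-quartile scaling and the ratio of deposited RPKM, Aldh1l1 alone stayed below and Psph stood above equal levels. The shares of all tested genes were 25.3% below and 26.6% above with upper-quartile scaling, and 24.7% and 27.1% with the RPKM ratio.

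Their mitochondrial counterparts had ratios on opposite sides of 1, with intervals that each included equal levels. Mthfd2 had 189 wild-type and 70 Gars C201R/+ reads, a log2 ratio of -0.33 (-0.75 to 0.07), or a fold of 0.795. Aldh1l2 had 101 and 60 reads, a log2 ratio of 0.35 (-0.14 to 0.82), or 1.27-fold. The Mthfd2 ratio was the lowest and the Aldh1l2 ratio the second highest of the tested members. Set against each other, Mthfd2 over Aldh1l2 gave a double ratio (the read ratio in Gars C201R/+ over that in wild type) of 0.623. Its 95% counting interval of 0.401 to 0.972 excluded 1. Because the pair combines ratios from near opposite ends of the tested members, that exclusion does not show that these enzymes diverged. By a normal interval of the log odds ratio, 44.2% of all pairs of listed genes, not matched for read numbers, excluded 1. Summed, the 4 mitochondrial enzymes had a log2 ratio of -0.07 (-0.28 to 0.14), and the 5 listed cytosolic enzymes -0.06 (-0.14 to 0.02).

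**Figure D3:**
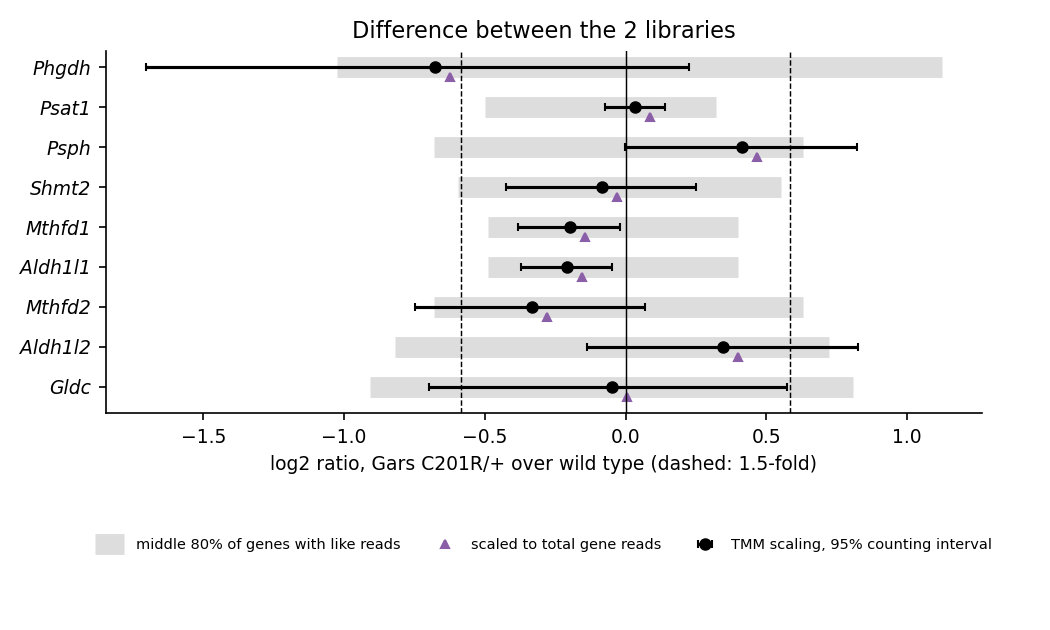
Log2 ratio of Gars C201R/+ over wild type for the 9 listed enzymes, with TMM scaling (circles, 95% counting intervals) and scaling to total gene reads (triangles), 1 library per genotype. Grey bars span the middle 80% of all genes with similar read numbers, and dashed lines mark 1.5-fold. All 9 circles lie inside their grey bars, and Phgdh, which was below the read minimum, is the only circle past a dashed line.

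Set against other genes with similar read numbers, no member stood out. The tested genes were split into 10 groups by reads, and the middle 80% of the log2 ratios in each group gave the range for its members. All 9 listed enzymes lay within it, Phgdh being set against the 1428 genes with 50 to 99 reads. Psph, for example, at 0.41, lay in a group of 969 genes with a range of -0.68 to 0.63, of which 24.6% were called. Psat1 lay in the group with the most reads, which ranged from -0.50 to 0.32 with 7.71% called. Among all genes tested, 35.0% had a log2 ratio further from 0 than Psph and 93.6% further than Psat1.

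Ratios of one enzyme to another within a library need no scaling between libraries, so the members were also set against each other. The double ratio is the read ratio of a pair in Gars C201R/+ over that in wild type. Shmt1 is not listed, which left 2 of the 3 pairs of cytosolic and mitochondrial counterparts. For Mthfd2 over Mthfd1 the read ratio was 0.216 in wild type and 0.197 in Gars C201R/+, a double ratio of 0.912 (95% counting interval 0.665 to 1.24). For Aldh1l2 over Aldh1l1 it was 0.0918 and 0.135, a double ratio of 1.47 (1.03 to 2.09). The interval of the Aldh1l pair excluded 1 by a small margin. In a random thinning of the wild-type reads to the depth of the other library, the double ratio was 1.52. Its interval, wider with fewer reads, then included 1 (0.994 to 2.34).

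Over all 36 pairs of the 9 enzymes, 9 intervals excluded 1, with no adjustment for the number of pairs and with pairs sharing members. By a faster normal interval of the log odds ratio, added after seeing the data, 10 of the 36 pairs (27.8%) did so, against 44.2% of all 78494185 pairs of listed genes. Intervals that excluded 1 were therefore no more frequent within the pathway than among the listed genes in general. Whether an interval excludes 1 depends on read numbers, for which the pairs were not matched. Psph took part in 4 of the 9, against Phgdh, Mthfd2, Mthfd1 and Aldh1l1, with double ratios of Psph to the last 3 of 1.68 (1.12 to 2.52), 1.53 (1.12 to 2.09) and 1.54 (1.13 to 2.09). The ratio of Phgdh to Psph, the first and last steps of serine synthesis, was 0.341 in wild type and 0.159 in Gars C201R/+, a double ratio of 0.465 (0.217 to 0.945) that rests on 45 and 13 Phgdh reads. Shmt2 and Gldc took part in none. Mthfd1 and Aldh1l1 kept the closest proportion, 0.795 and 0.800, a double ratio of 1.01 (0.850 to 1.19).

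Summed, the reads of the serine synthesis enzymes stood to those of the cytosolic folate enzymes as 1.24 to 1 in wild type and 1.47 to 1 in Gars C201R/+, a double ratio of 1.19 (1.07 to 1.33). The Psat1 reads dominate the serine synthesis sum, and Psat1 alone gave 1.18 against both Mthfd1 (1.02 to 1.36) and Aldh1l1 (1.03 to 1.35). Phgdh had double ratios below 1 against the same enzymes, 0.711 (0.348 to 1.36) and 0.716 (0.351 to 1.37). The mitochondrial enzymes gave a double ratio of 1.10 (0.929 to 1.30) against the cytosolic folate enzymes and 0.924 (0.785 to 1.09) against serine synthesis, both with intervals that include 1. These 3 sums were chosen with the values in view. Differences between 2 libraries that are unrelated to genotype enter such ratios as well and cannot be told apart from it here.

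**Figure D4:**
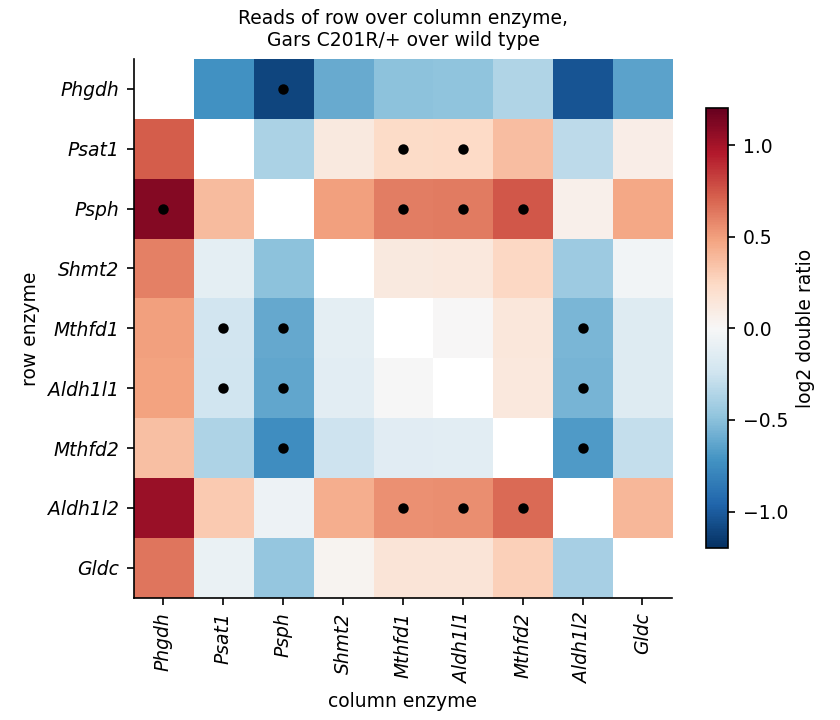
Log2 double ratio for each pair of the 9 listed enzymes, the reads of the row enzyme over those of the column enzyme in Gars C201R/+ over the same in wild type. Dots mark the 9 pairs, each drawn on both sides of the diagonal, whose 95% counting interval excludes equal proportions. They involve Psph, Aldh1l2, Psat1, Phgdh, Mthfd1, Aldh1l1 and Mthfd2, and none involves Shmt2 or Gldc.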

How the data were processed

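Per the labels' protocols, RNase I footprints were size-selected and made into cDNA libraries from pooled lysates. The submitters' processing notes name Bowtie 1.2.2, HTSeq 0.9.1 and build GRCm38. Settings, annotation, strandedness and the treatment of multiply mapped reads: not given in the sources used here. The read counts were used as the authors deposited them. The deposited RPKM values are reads over gene length and a library total. These totals and lengths were inferred, taking the first total at or above the listed reads, spike-ins included, that made gene lengths whole numbers. The totals were 7790126 in wild type and 3520348 in Gars C201R/+, both above the gene reads. ERCC spike-ins (18 rows) stayed out of the library sizes summed from gene reads. Whether the RPKM totals include them is not given in the sources used here.

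TMM factors came from edgeR 4.0.16 (R 4.3.3), with a prior count of 0.5 for log2 ratios and exact conditional binomial intervals at 95%. Double ratios have exact conditional odds ratio intervals. No model was fitted, since each genotype has a single library. The rule was tested on simulated data. Apart from genes changed on purpose, the simulated libraries differed by counting error only. That test therefore cannot show how the rule handles other differences between libraries. The intervals were computed with scipy 1.17.1 under Python 3.11.15. Reads may not be independent molecules. The members, lists and rules were chosen with earlier results of these data known. All 10 members were to be named, and the 32 other pathway genes and 37 cell type markers listed were not analysed here, because none of the 49997 rows of the RefSeq table holds an Ensembl identifier. Loci and promoters were matched to RefSeq (GRCm38.p6) by symbol, 10 of 10 and 9 of 10 members. Alternatives covered scaling, prior count, read minimum, interval level, fold limit and thinning.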

Additional observations from a re-analysis of the deposited data

Results flagged for a closer look

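The ERCC spike-ins, synthetic RNAs that lie outside the gene comparisons, made up 0.650% of the listed reads in the Gars C201R/+ library and 0.00669% in the wild-type library. Scaling to them is given among the alternatives, and their part in the enzyme ratios was not tested.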

How the results depend on the processing

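Scaling by total counts, by the upper quartile or by DESeq2 1.42.0 size factors, TMM without the genes above 1% of a library, the ratio of deposited RPKM and thinning of the wild-type library gave 0 members higher and 0 lower by the calling rule. So did no read minimum, a minimum of 20 or 500 reads, a 99% interval and a 2-fold limit. Among all genes tested, the scaling, RPKM and thinning settings called 7.9% to 9.79% higher and 9.45% to 11.2% lower. The shares were 11% and 10.8% with no minimum, and 10.9% and 11.1% with a minimum of 20 reads. They were 7.58% and 10.2% with a 99% interval, and 1.71% and 2.75% with a 2-fold limit. At the 2-fold limit so few genes were called that 0 of 8 members says little. The 500-read minimum left 3 members, with 3.53% of 4480 genes called higher and 7.77% lower. No fold limit gave 0 higher and 2 lower by its construction. The members with an interval below equal levels numbered 2 under TMM. Further settings were added for this count after seeing the data. DESeq2 size factors again gave 2 (28.4% of all tested genes), as did TMM without the genes above 1% of a library (28.2%). The number was 0 with total-count scaling, 1 with upper-quartile scaling and 1 with the RPKM ratio. It was 1 of 7 after thinning (25.6% of all tested genes) and 0 with a 99% interval (22.1%). Members with an interval above equal levels numbered 0 under TMM and 1 (Psph) with total-count scaling, upper-quartile scaling and the RPKM ratio. They numbered 0 with DESeq2 size factors (23.5% of all tested genes) and TMM without the genes above 1% (23.7%). Thinning (21.8%) and a 99% interval (17.9%) also gave 0. Scaling to the spike-ins shifts every gene by 1 common factor and put all 8 tested members (and all 9726 genes) lower, with a median log2 ratio of -6.60 against -6.58 over all genes. The double ratios do not depend on any scaling. A prior count of 5 or none left the median at -0.06 and -0.07, while thinning turned it to 0.11 over 7 members, against -0.03 over all genes. Depth limits Phgdh, Gldc and Aldh1l2 most. No paired analysis was possible because each genotype has 1 library, and for the same reason no replicate could be left out. The double ratio of Shmt2 over Shmt1 was not run, because Shmt1 is not listed, and the features that need protein sequences were not run either.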
